A study of Mus musculus with 2 samples.

Results

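The mitochondrial ribosomal protein genes were taken as the genes whose mouse symbol starts with Mrpl or Mrps followed by a digit, without pseudogene symbols. The rule found 78 genes, 49 with an Mrpl symbol, given to proteins of the large subunit, and 29 with an Mrps symbol, given to those of the small subunit, of 27321 genes with an entry in either short-read table. Of these, 77 were in both short-read tables and all 78 were in the isoform table of 12032 genes. Mrpl53 was the gene listed in the isoform table alone. Gene symbols and positions were taken from Gencode vM21 on the assembly GRCm38 (mm10).

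The cells were muscle stem cells (MuSCs), sorted on YFP from hindlimb muscle of Pax7creERT2;R26R-YFP mice on a C57BL6 background. The mice were 3 months old and were given tamoxifen (20 mg/ml) daily for 5 days, which switches on YFP in cells that express Pax7, and muscle was collected 2 weeks later. Quiescent cells came from uninjured muscle and activated cells from muscle taken 72 h after an injection of 1.2% barium chloride, and both were run in 1 capture of the 10x 3′ protocol. The droplets were divided into a 10% aliquot, sequenced with short and long reads, and a 90% aliquot, sequenced with short reads, and no label gives the origin of a single cell.

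Mitochondrial ribosomes translate the few proteins encoded by mitochondrial DNA, all of them subunits of the respiratory chain and ATP synthase. Their rRNAs come from mitochondrial DNA, whereas all their proteins are made from nuclear genes, translated by cytosolic ribosomes and imported. Muscle stem cells at rest are small, with little RNA and few mitochondria, and they gain both when they are activated and enter the cell cycle.

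Because origin was unknown, barcodes were divided by depth and by cycle genes. Barcodes of 3000 to 15000 short-read UMIs without a UMI of Rrm2, Top2a or Cdk1 were called shallow, and barcodes of at least 20000 UMIs were called deep. A UMI (unique molecular identifier) marks 1 captured RNA molecule, and since the protocol reads the 3′ end, a level in CPM (UMIs of a gene per 1000000 UMIs of the class) compares genes without regard to their length. The 10% aliquot gave 157 shallow barcodes with 1114508 UMIs and 79 deep barcodes with 5099209 UMIs. The 90% aliquot gave 1243 shallow barcodes with 6452314 UMIs and 606 deep barcodes with 29875734 UMIs. Of the deep barcodes, 88.6% and 94.2% held a UMI of the 3 cycle genes. Depth and cycle genes therefore both differ between the classes by construction.

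The 2 short-read tables shared cells. All 236 barcodes of the 10% classes were also listed in the 90% table. Among the profiles of these 236 barcodes there, 232 were closest in expression to their own barcode. Results of the 90% aliquot are therefore also given without the 634 shared barcodes, which left 1000 shallow and 399 deep barcodes, of which 93.5% held a cycle UMI. There were no replicates, so no p-value was computed. Intervals in parentheses are 95% intervals and cover counting error only.

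The classes differed in their markers. The summed level of 10 markers of quiescent MuSCs was 1428 CPM in shallow and 164 CPM in deep barcodes of the 10% aliquot, and all 10 were at least 1.5-fold lower in deep barcodes. Pax7 itself was low, at 27.8 CPM in shallow and 12.2 CPM in deep barcodes. The 6 cycle markers outside the rule summed to 18.8 CPM in shallow and 364 CPM in deep barcodes. The 6 immune markers summed to 317 CPM in shallow and 70.0 CPM in deep barcodes, and to 199 and 4.28 CPM in the 90% aliquot without shared barcodes. In the 10% aliquot 262 of the 353 shallow UMIs were of Cd74. Of the 5 immune markers tested there, 3 were lower and 2 higher in deep barcodes. Lyz2 was at 8.97 and 27.3 CPM, and C1qa had 0 and 49 UMIs. All 5 tested were lower in the 90% aliquot without shared barcodes. The 4 fibro-adipogenic markers summed to 10.8 and 34.3 CPM in the 10% aliquot and to 50.9 and 1.3 CPM in the other set. The 4 pericyte and glial markers summed to 60.1 and 1.37 CPM and to 8.94 and 5.20 CPM, and the 5 myofibre markers to 61.0 and 35.1 CPM and to 88.8 and 55.6 CPM. The 4 endothelial markers summed to at most 11.7 CPM in these sets. The markers of activated or differentiating myoblasts did not move together. Of 5 tested in the 10% aliquot 4 were higher and 1 was lower in deep barcodes. Myod1 was at 1106 CPM in shallow and 185 CPM in deep barcodes, whereas Myog was at 1.79 and 33.1 CPM and Ccnd1 at 32.3 and 157 CPM. Of 5 tested in the 90% aliquot without shared barcodes 3 were higher and 2 lower. The part of other cell types in the results was not tested, but counts of the mitochondrial ribosomal genes were repeated without the barcodes with at least 3 UMIs of immune, endothelial, fibro-adipogenic, pericyte or glial markers, an alternative chosen after seeing the data. Such barcodes were 3 shallow and 12 deep ones in the 10% aliquot, and 28 shallow and 31 deep ones in the 90% aliquot.

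The mitochondrial ribosomal protein genes were together 2.57-fold higher in deep barcodes of the 10% aliquot (2.47 to 2.68). Their summed level was 2426 CPM in shallow and 6243 CPM in deep barcodes. In the 90% aliquot without shared barcodes the sum was 2579 CPM in shallow and 6601 CPM in deep barcodes, a fold of 2.56 (2.51 to 2.61). The median fold over genes was 3.08 in the 10% aliquot and 3.13 in the 90% aliquot without shared barcodes, against 1.252 and 1.21 over all genes with at least 20 UMIs. Relative to those medians the genes were 2.46-fold and 2.59-fold higher.

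Of the 77 genes, 64 were at least 1.5-fold higher in deep barcodes of the 10% aliquot and 0 were at least 1.5-fold lower. Among all 10076 genes tested there, 42.3% were at least 1.5-fold higher and 24.2% at least 1.5-fold lower. In the 90% aliquot 71 of 77 were higher and 1 was lower, where the background was 41.0% higher and 27.3% lower. Without shared barcodes 70 were higher and 1 was lower, against 41.1% and 26.7% of all genes. Without the barcodes that held markers of other cell types, 66 genes were higher in the 10% aliquot and 71 in the 90% aliquot, and 0 were lower in either. Among all genes under this setting 43.5% and 42.1% were higher, and 23.5% and 26.6% were lower. With deep barcodes without a cycle UMI, which were 9 in the 10% aliquot, 34 of 56 genes tested were higher and 3 were lower, and the median fold was 1.88. All genes shifted as well under this setting, to a median fold of 0.993, with 30.04% of them higher and 29.7% lower. With the 35 such barcodes of the 90% aliquot 65 of 77 were higher and 1 was lower, against 33.5% and 32.2% of all genes. The interval of the fold lay wholly above 1 for 67 of 77 genes in the 10% aliquot and for 73 in the 90% aliquot without shared barcodes. Intervals were not counted over all genes, so these counts cannot be set against a background.

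**Figure D1:**
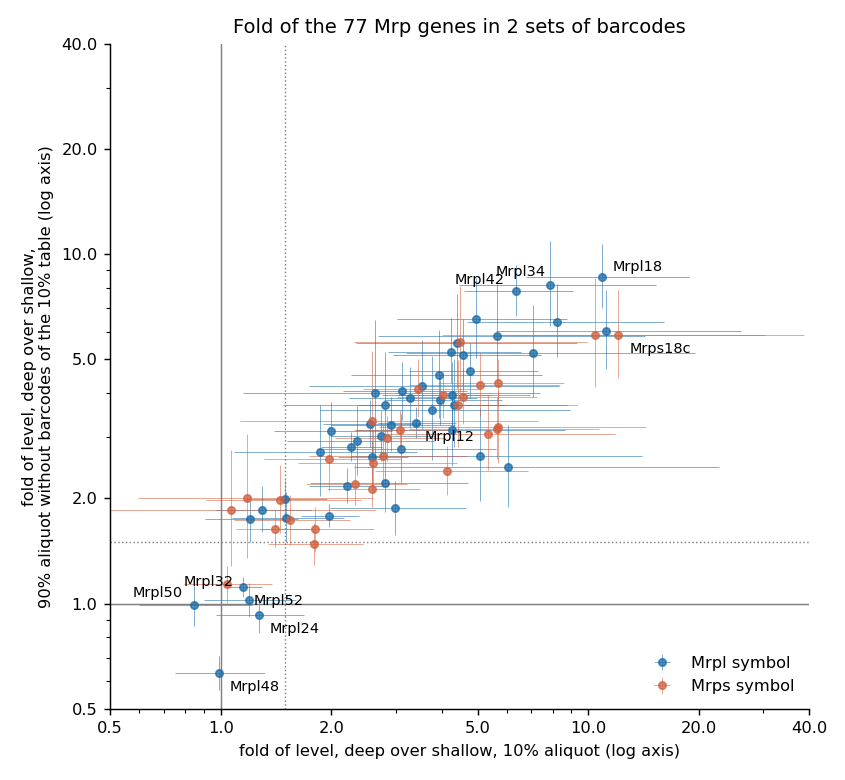
Fold of the level (deep over shallow barcodes, log axes) of the 77 mitochondrial ribosomal protein genes in the 10% aliquot (x axis) and in the 90% aliquot without shared barcodes (y axis), with 95% counting intervals. Solid lines mark a fold of 1 and dotted lines a fold of 1.5. Most genes lie above 1.5 on both axes, and Mrpl48 lies lowest on the y axis at 0.632.

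Genes of both symbol groups showed the difference. The 48 genes with an Mrpl symbol summed to 1716 CPM in shallow and 4229 CPM in deep barcodes of the 10% aliquot, and 40 were at least 1.5-fold higher. The 29 genes with an Mrps symbol, Mrps36 included, summed to 711 and 2014 CPM, and 24 were at least 1.5-fold higher. Proteins with a bacterial homolog and proteins added in mitochondria had similar median folds. The median fold was 3.25 for the 30 large subunit genes with a bacterial homolog and 2.85 for the 18 others measured, and 2.84 for the 17 Mrps genes with a bacterial homolog and 2.77 for the 11 others. The summed levels of the large subunit did differ between these groups, with a fold of 2.75 (2.58 to 2.92) for genes with a bacterial homolog and 2.09 (1.94 to 2.25) for the others in the 10% aliquot. These folds were 2.81 (2.73 to 2.89) and 2.12 (2.05 to 2.20) in the 90% aliquot without shared barcodes. Mrpl52, the most abundant of the others, is among the genes with the lowest folds. Mrps36, which is now known as part of a metabolic enzyme complex rather than of the ribosome, was 5.08-fold higher in the 10% aliquot (3.25 to 8.40).

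The difference was also visible in single barcodes. In the 10% aliquot the median barcode held 2206 CPM of the genes in the shallow class (quartiles 1634 and 2923) and 6137 CPM in the deep class (5209 and 7116). In the 90% aliquot without shared barcodes the medians were 2281 and 6513 CPM. The 95th percentile of the shallow class was exceeded by 87.3% of deep barcodes in the 10% aliquot and by 91.0% in the 90% aliquot without shared barcodes. The classes overlapped at their edges, since the lowest deep barcode of the 10% aliquot held 1721 CPM and the highest shallow barcode 6444 CPM. The median barcode had a UMI of 10 of the genes in the shallow class and of 67 in the deep class. After each barcode was thinned to 3000 UMIs, these medians were 5 and 15 in the 10% aliquot and 6 and 16 in the 90% aliquot without shared barcodes.

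Depth and cycle UMIs were each accompanied by a higher level. Among barcodes of 3000 to 15000 UMIs in the 10% aliquot, the 21 barcodes with a cycle UMI held 4454 CPM (4130 to 4798) and the 157 without held 2426 CPM (2336 to 2519). Among barcodes of at least 20000 UMIs, the 70 with a cycle UMI held 6356 CPM (6285 to 6427) and the 9 without held 4311 CPM (4072 to 4561). In the 90% aliquot without shared barcodes these levels were 4226 CPM in 116 barcodes and 2579 CPM in 1000 barcodes in the lower range of depth, and 6638 CPM in 373 barcodes and 5916 CPM in 26 barcodes in the upper range. Deep barcodes without a cycle UMI thus lay above shallow barcodes without one in both sets. Barcodes with and without a cycle UMI also differed in depth, with medians of 67989.5 and 30859 UMIs in the deep range of the 10% aliquot. In narrower bins of the 90% aliquot without shared barcodes, the levels with and without were 5378 and 3597 CPM from 8000 UMIs. They were 6414 and 5494 CPM from 20000 UMIs, and 6736 (6686 to 6786) and 6608 CPM (6344 to 6881) from 40000 UMIs.

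Within barcodes without a cycle UMI, the level in the 90% aliquot without shared barcodes was 2341 CPM in the bin from 3000 UMIs, 2548 CPM from 5000 UMIs, 3597 CPM from 8000 UMIs, 4304 CPM from 15000 UMIs and 5494 CPM from 20000 UMIs. The bin from 40000 UMIs held 6608 CPM in 8 barcodes, and the bins from 15000 and 20000 UMIs rest on 13 and 18 barcodes. In that set the level was higher in each deeper bin although no cycle UMI was seen. In the 10% aliquot the levels in the same bins were 2445, 2094, 2783, 3351, 4405 and 4134 CPM, the last in 2 barcodes, and they were not in order of depth. Barcodes of under 500 UMIs had 4205 CPM of the genes in the 10% table and 3575 CPM in the 90% table without shared barcodes. These levels lie between those of the shallow and deep classes. Such barcodes can be droplets with free RNA and no cell. In the 10% aliquot, however, 1612 of 1991 barcodes were under 500 UMIs, and 634 were shared with the 90% aliquot. In the 90% aliquot 391 barcodes were under 500 UMIs, and 343 without shared ones. Some shared barcodes under 500 UMIs in the 10% aliquot thus had at least 500 UMIs in the 90% aliquot. The part of cells in the 4205 CPM and the part of free RNA in the shallow levels were not tested.

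**Figure D2:**
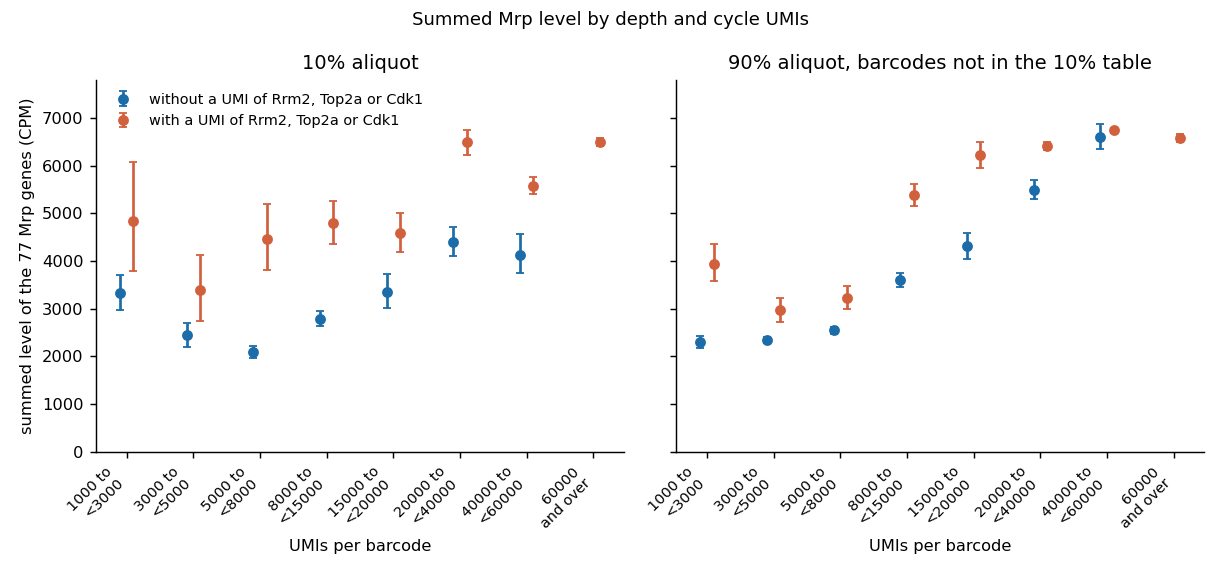
Summed level of the 77 genes (CPM, y axis) by UMIs per barcode (x axis) for barcodes with (orange) and without (blue) a UMI of Rrm2, Top2a or Cdk1, with 95% Poisson intervals, in the 10% aliquot (left) and in the 90% aliquot without shared barcodes (right). In the right panel the blue points go from 2341 CPM in the bin from 3000 UMIs to 5494 CPM in the bin from 20000 UMIs.

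Other genes of mitochondrial translation were compared from fixed lists. The 5 mitoribosomal subunits under other symbols (Dap3, Chchd1, Ptcd3, Aurkaip1 and Gadd45gip1) were all at least 1.5-fold higher in both sets, with median folds of 3.00 in the 10% aliquot and 2.48 in the 90% aliquot without shared barcodes. Of the mitochondrial translation factors, 6 of 9 tested were higher in the 10% aliquot and 8 of 10 in the 90% aliquot without shared barcodes, against 42.3% and 41.1% of all genes, and 0 were lower, against 24.2% and 26.7%. Tufm, the elongation factor that brings aminoacyl-tRNA to the ribosome, went from 3.59 to 45.1 CPM in the 10% aliquot and from 12.1 to 60.8 CPM in the other set. Tsfm, which recharges Tufm with GTP, went from 6.28 to 40.0 CPM and from 6.96 to 49.6 CPM. Mrrf, the ribosome recycling factor, did not pass the limit, with 26.0 and 22 CPM in the 10% aliquot and 19.7 and 20.1 CPM in the other set.

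Genes for assembly of the ribosome and modification of its rRNA gave different counts in the 2 sets. Of 16 tested in the 10% aliquot, 7 were higher and 1 was lower, and of 20 in the 90% aliquot without shared barcodes, 14 were higher and 2 were lower. The share higher in the 10% aliquot was thus near the 42.3% of all genes, and that in the other set was above the 41.1% of all genes. Rbfa, an assembly factor of the small subunit, was 4.13-fold higher in the latter set (2.87 to 6.15). Mterf3 was at 28.0 CPM in shallow and 17.6 CPM in deep barcodes there, a fold of 0.630 (0.515 to 0.773). Nsun4, an rRNA methyltransferase, had a fold of 0.617 (0.407 to 0.953). In the 10% aliquot neither passed the limit, with folds of 0.772 (0.429 to 1.48) for Mterf3 and 0.984 (0.324 to 3.995) for Nsun4. The gene that was lower there was Mrm3, another rRNA methyltransferase, with a fold of 0.424 (0.230 to 0.812), and its fold in the other set was 0.683 (0.494 to 0.958).

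The RNAs made in mitochondria showed another pattern. The 13 mitochondrial mRNAs summed to 7664 CPM in shallow and 7192 CPM in deep barcodes of the 10% aliquot, and to 12440 and 10678 CPM in the 90% aliquot without shared barcodes. Single mRNAs went in both directions. The fold of mt-Co3 was 0.695 (0.635 to 0.762) in the 10% aliquot and 0.621 (0.599 to 0.644) in the other set. That of mt-Nd2 was 1.22 (1.11 to 1.35) and 1.32 (1.27 to 1.37). The rRNA mt-Rnr2 was at 956 and 1329 CPM in the 10% aliquot, a fold of 1.39 (1.3 to 1.48), and had a fold of 1.51 (1.46 to 1.55) in the other set. The cytosolic ribosomal proteins summed to 137003 CPM in shallow and 130016 CPM in deep barcodes of the 10% aliquot, with a median fold of 0.975, and 7 of 83 tested were higher and 6 lower. Their median fold was 0.973 in the 90% aliquot without shared barcodes.

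**Figure D3:**
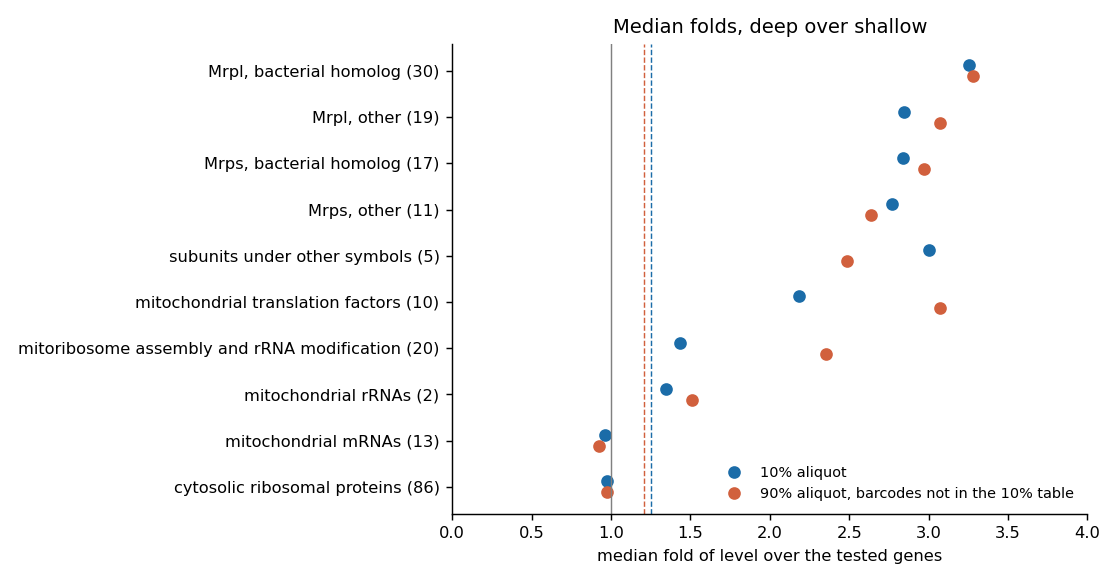
Median fold of the level (deep over shallow, x axis) over the tested genes of each list, with the list's size in parentheses, in the 10% aliquot (blue) and the 90% aliquot without shared barcodes (orange). Dashed lines give the median over all genes tested, 1.252 and 1.21, and the cytosolic ribosomal proteins lie at 0.975 and 0.973.

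Single genes differed widely in fold. Values of the 90% aliquot include all its barcodes in the sentences on single genes unless stated. In the 10% aliquot folds ran from 0.843 for Mrpl50 to 12.1 for Mrps18c, and in the 90% aliquot from 0.662 for Mrpl48 to 9.56 for Mrpl34. The quartiles were 1.98 and 4.57 in the 10% aliquot. The order was similar in both sets of barcodes, with a Spearman correlation of 0.850 over the 77 genes between the 10% aliquot and the 90% aliquot without shared barcodes, which came from the same capture. Genes with a low level in shallow barcodes had the higher folds, with a correlation of -0.61 between shallow CPM and fold in the 10% aliquot. The shallow CPM is itself the divisor of the fold. Between deep CPM and fold the correlation was 0.046.

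The highest folds in the 90% aliquot were those of Mrpl34, Mrpl18, Mrpl11 and Mrpl42. Mrpl34 was at 9.61 CPM in shallow and 91.9 CPM in deep barcodes (9.56-fold, 7.44 to 12.5), and at 10.8 and 84.7 CPM in the 10% aliquot. Mrpl18, the homolog of a bacterial protein that binds 5S rRNA, was at 17.2 and 163 CPM (9.49-fold, 7.86 to 11.6), and at 15.3 and 167 CPM in the 10% aliquot. Mrpl11, at the base of the stalk to which translation factors bind, was at 12.4 and 95.1 CPM (7.67-fold, 6.14 to 9.71). Mrpl42 was at 31.9 and 235 CPM (7.36-fold, 6.4 to 8.49). The intervals of Mrpl34 and Mrpl18 overlap over most of their length, so their order is not resolved. Mrpl55, Mrpl40, Mrpl22 and Mrpl49 followed with folds of 7.02, 6.87, 5.98 and 5.82. Their deep levels were between 48.2 and 80.5 CPM and their shallow levels between 8.06 and 11.5 CPM.

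The lowest folds in the 90% aliquot were those of 6 genes that stayed under 1.5 in both aliquots. Mrpl48, a protein of the large subunit, was at 89.1 CPM in shallow and 59.0 CPM in deep barcodes of the 90% aliquot (0.662-fold, 0.602 to 0.728). In the 10% aliquot it was at 56.5 and 55.9 CPM (0.989-fold, 0.750 to 1.32). Without the barcodes that held markers of other cell types, its fold in the 90% aliquot was 0.668, just short of the limit of 1.5-fold lower. Mrpl24 was at 73.8 and 73.0 CPM in the 90% aliquot (0.989-fold, 0.895 to 1.09), Mrpl50 at 49.4 and 49.5 CPM (1.00-fold, 0.887 to 1.13) and Mrpl32 at 73.5 and 77.6 CPM (1.06-fold, 0.957 to 1.17). Mrps6 was at 63.1 and 73.1 CPM (1.16-fold, 1.04 to 1.29), and its exons overlap those of Slc5a3 on the same strand.

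Mrpl52 had the highest level of all in shallow barcodes. It was at 298 CPM in shallow and 342 CPM in deep barcodes of the 10% aliquot (1.15-fold, 1.02 to 1.29), and at 241 and 264 CPM in the 90% aliquot (1.10-fold, 1.04 to 1.16). Mrps28 and Mrps7 had folds of 1.58 (1.40 to 1.78) and 1.63 (1.47 to 1.81). Mrps28 was 1.48-fold without shared barcodes, just under the limit, and Mrps7 was 1.41-fold in the 10% aliquot.

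Other abundant genes were higher in deep barcodes. Mrpl12, which forms the stalk of the large subunit, was at 66.4 CPM in shallow and 226 CPM in deep barcodes of the 10% aliquot (3.40-fold, 2.68 to 4.36), and at 83.8 and 273 CPM in the 90% aliquot (3.26-fold, 2.99 to 3.56). Mrpl33 was at 97.2 and 274 CPM in the 90% aliquot (2.82-fold, 2.60 to 3.06) and Mrpl30 at 150 and 273 CPM (1.83-fold, 1.71 to 1.95). In deep barcodes of the 90% aliquot Mrpl12, Mrpl30 and Mrpl33 were thus within counting error of each other, while their shallow levels differed. Mrpl20, Mrpl54, Mrps21, Mrps24 and Mrps14 had folds of 2.56, 2.15, 3.81, 3.26 and 2.16 in the 90% aliquot, with deep levels from 138 to 217 CPM.

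The 3 paralogs of bacterial S18 did not move alike. Mrps18c, the form found at the S18 site of the small subunit, was at 11.0 CPM in shallow and 59.8 CPM in deep barcodes of the 90% aliquot (5.44-fold, 4.29 to 7.0). Mrps18a, which sits in the large subunit, was at 42.0 and 70.4 CPM (1.68-fold, 1.48 to 1.91), and Mrps18b was at 36.3 and 61.1 CPM (1.68-fold, 1.47 to 1.94). The interval of Mrps18c did not overlap those of the other two. Their deep levels lay between 59.8 and 70.4 CPM, and their shallow levels between 11.0 and 42.0 CPM. An exon of Mrps18c overlaps Gm43511 on the same strand.

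The 44 genes not named here were all at least 1.5-fold higher in the 90% aliquot, with folds from 1.69 (Mrpl4) to 6.21 (Mrps35) and a median of 3.49. In the 10% aliquot 38 of these 44 passed, with folds from 1.07 (Mrps2) to 10.4 (Mrps22).

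Long reads gave the same direction for the sum. In the isoform table the genes held 5442 long-read UMIs in shallow and 40159 in deep barcodes of the 10% aliquot, or 3936 and 8677 CPM of long-read UMIs, a fold of 2.20. Mrpl53 was at 55.0 and 126 CPM (2.29-fold, 1.8 to 2.95). The fold lay on different sides of 1 in the read types for 2 genes. Mrpl50 was 1.253-fold in long reads (0.966 to 1.64), with 1 inside its interval in both read types. Mrpl44 was 0.695-fold in long reads (0.503 to 0.972, 55 and 128 UMIs) and 2.62-fold in short reads of the same aliquot (1.15 to 7.38, 6 and 72 UMIs). Exons of 28 of the 78 genes overlap a gene on the opposite strand, Wdfy1 in the case of Mrpl44, and 8 overlap a gene on the same strand, and whether counting used the strand is not given in the sources used here.

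Isoforms were compared as shares of a gene's long-read UMIs. The table listed 522 isoforms of the genes, of which 91 carried the name of a reference transcript. Exon structures of the others were not used, and they are given by their start and end. With at least 50 long-read UMIs in each class, 40 genes could be compared, and 9 of them (22.5%) had an isoform that gained or lost at least 20 percentage points. Such an isoform was found in 17.3% of all 3265 genes compared. With at least 100 UMIs in each class the count was 3 of 20 genes (15%, against 10.6% of all genes), and among reference-named isoforms alone it was 1 of 18 (5.56%, against 5.65%). The share in these genes was thus not above that of all genes in every setting. The median of the largest difference was 13.9 points in the 40 genes and 10.6 points in all genes.

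The largest difference was in Mrps26, a protein of the small subunit (chr2:130563742-130568695, plus strand). The reference transcript ENSMUST00000046149.8, which the annotation types as a retained intron, held 40 of 68 UMIs in shallow barcodes (58.8%, 46.2 to 70.6) and 55 of 541 in deep barcodes (10.2%, 7.75 to 13.0). An isoform without a reference name and with nearly the same ends (chr2:130563750-130565394) held 29.4% in shallow and 84.8% in deep barcodes, a difference of 55.4 points (43.3 to 65.3). Transcripts typed as retained introns held 1.54% of the 5442 UMIs of the mitochondrial ribosomal genes in shallow and 0.396% of 40159 in deep barcodes. The 40 and 55 UMIs of the Mrps26 transcript are a large part of these. The share over all genes of the isoform table was not computed.

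In Mrps10 the protein-coding ENSMUST00000120737.7 went from 30.9% of 68 UMIs to 76.1% of 393 UMIs (difference 45.2 points, 32.6 to 55.7). In Mrps18b the protein-coding ENSMUST00000025305.15 went from 54% to 79.7% (25.7 points, 15.5 to 36.0). Among reference-named isoforms alone, this Mrps18b difference was 3.40 points. In Mrpl44 the isoform that starts at chr1:79776116 went from 54.5% of 55 UMIs to 93.0% of 128 UMIs (38.4 points, 24.7 to 51.9), and the one that starts at chr1:79776257 from 41.8% to 6.25%. These starts lie within 200 bases of each other, and joined into 1 group of 5′ ends they held 100% of the UMIs in both classes. In Mrps17 the isoform at chr5:129715534-129718480 numbered 2 went from 38.2% to 4.13% (34.1 points lower, 25.3 to 43.5). In Mrpl43 an isoform at chr19:45004949-45006420 went from 25.5% to 4.48% (21.0 points lower, 11.1 to 33.9), and in Mrps7 an isoform at chr11:115603944-115607605 from 62.8% to 82.9% (20.1 points, 13.5 to 27.0).

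The leading isoform took a larger share in deep barcodes in most of these genes. For each gene the leading isoform was the one with most UMIs in barcodes outside both classes. Its share was higher in deep than in shallow barcodes for 33 of the 40 genes (82.5%), with medians of 58.9% and 76.2%. Over all 3230 genes with at least 2 isoforms the share was higher for 66.1%, with medians of 51.3% and 56.5%. Of the 61903 long-read UMIs of the mitochondrial ribosomal genes, 5442 were in shallow and 40159 in deep barcodes. Another 12290 were in barcodes of under 500 short-read UMIs, which are outside both classes. The genes were at 7506 CPM there, nearer to deep (8677 CPM) than to shallow barcodes (3936 CPM). The choice of leading isoform may thus lean towards deep barcodes, which was not tested. At an equal number of 50 UMIs, 29 of 40 genes (72.5%) had more isoforms in shallow than in deep barcodes, against 60.5% of all genes. Mrpl48 lay on the other side of this pattern, with 31.5% in shallow and 14.2% in deep barcodes.

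**Figure D4:**
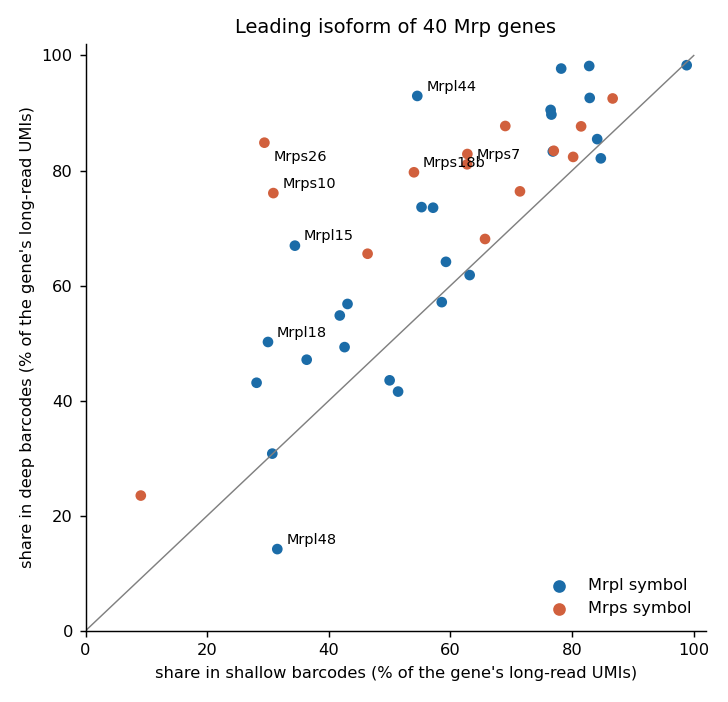
Share of the leading isoform among a gene's long-read UMIs in shallow (x axis) and deep (y axis) barcodes of the 10% aliquot for 40 genes, blue for Mrpl and orange for Mrps symbols. The line marks equal shares. Of the 40 points 33 lie above it, and Mrpl48, at 31.5% and 14.2%, lies far below.

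Isoforms were then grouped by their 5′ and 3′ ends, with ends within 200 bases joined. The share of one 5′ group differed by at least 20 points in 2 of 40 genes (5%), Mrpl48 and Mrpl18, against 6.22% of all genes. The share of one 3′ group did so in 1 of 40, Mrpl15, against 13.6% of all genes. In Mrpl15 the ends at chr1:4776240-4776377 held 45.9% in shallow and 74.3% in deep barcodes (28.4 points, 15.5 to 40.7). In Mrpl18 the reference start at chr17:12916345 held 30% of 60 UMIs in shallow and 50.2% of 998 in deep barcodes (20.2 points, 7.31 to 30.8).

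Mrpl48 (chr7:100545751-100608301, minus strand) began at different first exons in the classes. Its upstream 5′ ends, at chr7:100608241-100608301, held 84 of 111 UMIs in shallow barcodes (75.7%, 66.6 to 83.3) and 80 of 338 in deep barcodes (23.7%, 19.2 to 28.6). Its downstream 5′ ends, at chr7:100583102, held the other 27 and 258 UMIs. The difference was 52.0 points (42.0 to 60.2). In Gencode the upstream ends belong to the first exon of ENSMUST00000146003.8 (chr7:100607891-100608301) and the downstream ends to that of ENSMUST00000150042.7 (chr7:100582990-100583102), and both transcripts go on with the same exon at chr7:100574462-100574514.

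The levels of the 2 forms differed in opposite directions. The upstream form was at 60.8 CPM of long-read UMIs in shallow barcodes (48.5 to 75.2) and 17.3 CPM in deep barcodes (13.7 to 21.5), 3.52-fold lower in deep barcodes (2.56 to 4.84). The downstream form was at 19.5 CPM in shallow (12.9 to 28.4) and 55.7 CPM in deep barcodes (49.1 to 63.0), 2.85-fold higher (1.92 to 4.42). The median fold of the genes was 2.39 in long reads, and the gene's sum was 80.3 and 73.0 CPM. The upstream UMIs came from 32 shallow and 28 deep barcodes and the downstream UMIs from 14 and 54, with at most 17 in 1 barcode. The upstream share was 85.7% in the 21 barcodes of 3000 to 15000 UMIs with a cycle UMI (24 of 28 UMIs, 67.3 to 96.0) and 40.0% in the 9 deep barcodes without one (8 of 20 UMIs, 19.1 to 63.9). Of the 21 barcodes, 5 held upstream UMIs, with at most 7 in 1 barcode, and 2 held downstream UMIs. Of the 9 barcodes, 3 held upstream and 3 held downstream UMIs, so both shares rest on few cells.

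**Figure D5:**
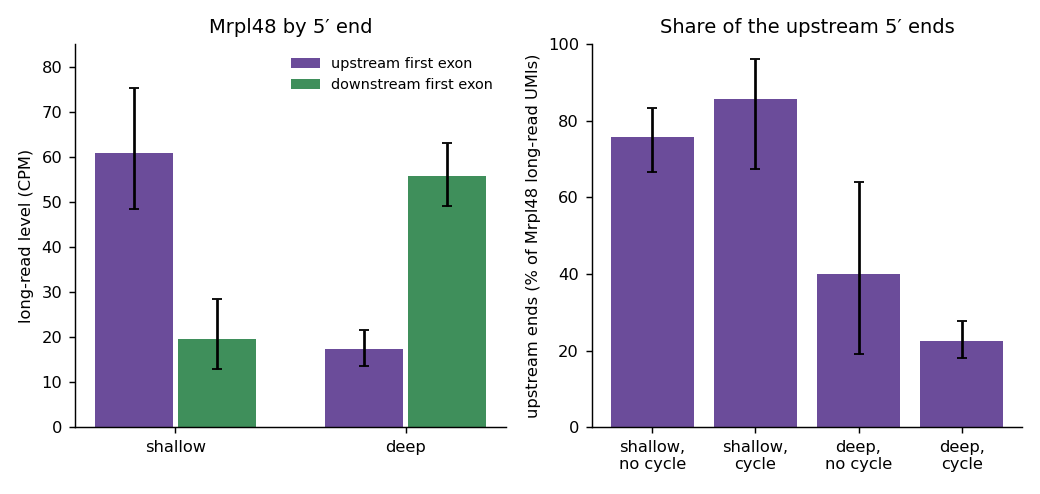
Left, level of the upstream (purple) and downstream (green) 5′ ends of Mrpl48 in shallow and deep barcodes (CPM of long-read UMIs, 95% Poisson intervals), 60.8 and 19.5 CPM in shallow and 17.3 and 55.7 CPM in deep barcodes. Right, upstream ends as a percentage of Mrpl48 UMIs with exact 95% intervals, by depth (shallow, 3000 to 15000 UMIs, and deep) and cycle UMIs. The share is 75.7% in shallow barcodes without a cycle UMI and 22.6% in deep barcodes with one.

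The upstream first exon lies within Rab6a (chr7:100607410-100641268, plus strand), which encodes a GTPase of the Golgi and is transcribed the other way. In short reads Rab6a was at 191 CPM in shallow and 57.5 CPM in deep barcodes of the 10% aliquot (0.301-fold, 0.251 to 0.360), and at 319 and 88.0 CPM in the 90% aliquot (0.276-fold, 0.261 to 0.293). Rab6a and the upstream form of Mrpl48 were therefore both lower in deep barcodes by a similar factor. Reads that lie within the overlap cannot be told apart where counting does not use the strand. The 3′ ends of all counted Mrpl48 isoforms, at chr7:100548709 and chr7:100549121, lie outside Rab6a. The part of Rab6a reads in the upstream form was not tested.

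RefSeq lists promoters near both first exons, among 4 for Mrpl48. The windows are printed because the levels of the 2 forms differ in direction. Each runs from 250 bases before to 30 after the RefSeq start on GRCm38.p6, written 5′ to 3′ along the gene, and capitals mark matches to the motifs named after the sequences. The upstream window is chr7:100608272-100608551 (minus strand) and the downstream window chr7:100583101-100583380 (minus strand).

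Mrpl48 upstream: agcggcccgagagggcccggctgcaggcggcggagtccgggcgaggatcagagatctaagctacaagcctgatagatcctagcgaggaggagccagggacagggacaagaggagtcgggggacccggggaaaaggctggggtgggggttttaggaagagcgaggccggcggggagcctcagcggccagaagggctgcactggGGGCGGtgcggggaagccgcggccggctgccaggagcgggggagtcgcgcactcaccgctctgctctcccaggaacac

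Mrpl48 downstream: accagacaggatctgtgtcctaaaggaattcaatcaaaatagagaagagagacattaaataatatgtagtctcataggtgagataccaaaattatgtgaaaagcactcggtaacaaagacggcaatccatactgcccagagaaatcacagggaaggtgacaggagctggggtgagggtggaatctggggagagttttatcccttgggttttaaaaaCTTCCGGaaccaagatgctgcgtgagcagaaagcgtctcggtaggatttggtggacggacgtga

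The capitals mark a GC box in the upstream window and an ETS motif in the downstream window.

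The 5 motifs were searched for on both strands in windows from 250 bases before to 50 after the start, spelled GCGC and TGCGC with any 1 base between them (NRF1), CCGGAAG (ETS), AANATGGCG (YY1), CACGTG (E-box) and GGGCGG (GC box). Matches were counted for each motif on its own, so that motifs could share bases. Of the 78 genes, 69 had a window, 75 windows in all, and the table held 32851 windows of all genes. The ETS letters were in 26 of 75 windows (34.7%) and in 8.86% of all windows. The NRF1 letters were in 13 (17.3%) against 4.6%, and the YY1 letters in 11 (14.7%) against 2.38%. At least 1 of these 3 was in 42 of 75 windows (56.0%) and in 14.2% of all windows. The E-box was in 7 (9.33%) against 7.15%, and the GC box in 39 (52.0%) against 35.7%. A match is a description of the letters and no evidence of binding.

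Motif counts are given for both ends of the order of folds. Of the 22 genes with the highest folds in the 90% aliquot and a window, 9 had the ETS letters, and of the 22 with the lowest, 6 did. The NRF1 letters were in 2 and 4 of them, the YY1 letters in 4 and 2, the E-box in 4 and 1, and the GC box in 14 and 10. Windows of a pair of genes from each end of the order are printed for comparison. Mrpl18 and Mrpl34 had the highest folds, and Mrpl24 and Mrpl50 were near a fold of 1 in the 90% aliquot. Their windows are chr17:12916062-12916341 (minus strand), chr8:71464676-71464955 (plus strand), chr3:87919294-87919573 (plus strand) and chr4:49521054-49521333 (minus strand).

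Mrpl18: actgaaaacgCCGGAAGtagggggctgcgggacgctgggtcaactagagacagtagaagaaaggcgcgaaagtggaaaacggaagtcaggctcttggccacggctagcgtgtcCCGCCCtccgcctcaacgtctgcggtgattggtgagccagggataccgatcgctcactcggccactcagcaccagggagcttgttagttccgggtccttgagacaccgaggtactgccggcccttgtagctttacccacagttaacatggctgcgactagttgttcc

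Mrpl34: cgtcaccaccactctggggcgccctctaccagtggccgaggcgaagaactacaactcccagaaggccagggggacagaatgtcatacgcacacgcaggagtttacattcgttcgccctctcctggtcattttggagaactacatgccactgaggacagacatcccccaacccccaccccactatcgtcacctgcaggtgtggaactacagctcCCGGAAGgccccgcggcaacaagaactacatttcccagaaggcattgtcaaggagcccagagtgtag

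Mrpl24: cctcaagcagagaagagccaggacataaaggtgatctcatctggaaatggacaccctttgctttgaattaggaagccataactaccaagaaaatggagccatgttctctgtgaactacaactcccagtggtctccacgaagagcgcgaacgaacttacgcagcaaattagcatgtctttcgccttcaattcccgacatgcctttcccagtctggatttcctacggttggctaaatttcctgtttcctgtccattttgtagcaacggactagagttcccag

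Mrpl50: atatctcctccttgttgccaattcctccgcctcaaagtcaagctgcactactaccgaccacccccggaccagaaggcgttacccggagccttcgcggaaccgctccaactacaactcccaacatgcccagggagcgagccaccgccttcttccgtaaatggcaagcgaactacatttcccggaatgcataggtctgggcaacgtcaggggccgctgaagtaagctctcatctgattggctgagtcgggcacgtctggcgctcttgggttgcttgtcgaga

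The windows of Mrpl18 and Mrpl34 each hold the ETS letters, that of Mrpl18 also the GC box, and those of Mrpl24 and Mrpl50 hold no match to the 5 motifs in the stretch printed. The Mrpl18 window is set on a start at chr17:12916091, near the 5′ ends at chr17:12916103, which held 47.5% of its long-read UMIs in deep barcodes. The Mrpl18 start at chr17:12916345, with 50.2% of them, lies outside this window. Exons of Mrpl18 also overlap Tcp1 on the opposite strand.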

How the data were processed

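The deposited values were raw counts of UMIs, made by the authors with scPipe for genes (short reads) and with FLAMES for isoforms (long reads). Long reads had been aligned to mm10 with Gencode vM24, and the submitters' processing notes name minimap2 2.17 and Cell Ranger 1.3. Reads that fitted no single transcript or covered little of it had been discarded, so isoform counts hold a part of the reads. The 10% table held 6772259 UMIs in 1991 barcodes and the 90% one 39044129 UMIs in 3001. From these counts, UMIs were summed per class and divided by the class total. Genes with at least 20 UMIs over both classes were set against a fold of 1.5, and isoforms with at least 50 UMIs of their gene in each class against 20 points. Levels have exact Poisson, folds exact conditional binomial, shares Clopper-Pearson and differences Newcombe 95% intervals. Doublets were kept. Scrublet called 2 of 269 barcodes of at least 3000 UMIs in the 10% table and 2 of 2039 in the 90% table, too few to show that it had worked, and leaving them out was an alternative. Named genes were the 10 with the highest level, the 8 highest and 8 lowest folds of the 90% aliquot on the same side of the median in the 10% aliquot, those with isoform differences of at least 20 points, Mrpl12, the Mrps18 paralogs and Mrpl53. Other named genes, the end groups and the printed promoters were chosen after values were seen. Members and lists were chosen with earlier results of these data known. The calculations were tested on simulated counts. Python 3.11.15 with scipy 1.17.1 and scanpy 1.11.5 was used.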

Additional observations from a re-analysis of the deposited data

Results flagged for a closer look

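Signals were also seen in barcodes and genes that the comparisons do not use. The 1612 barcodes of under 500 short-read UMIs held 12290 long-read UMIs of the genes in the isoform table, against 209 short-read UMIs. Over all genes these barcodes held 1.64e+06 long-read and 49698 short-read UMIs, so the excess of long-read UMIs was not particular to the mitochondrial ribosomal genes. Pseudogenes with an Mrp symbol had UMIs in the deep barcodes of the 90% aliquot, namely 4508 for Mrpl23-ps1, 296 for Mrpl48-ps, 2339 for Mrps36-ps1 and 1531 for Mrps36-ps2. How reads were divided between these pseudogenes and Mrpl23, Mrpl48 and Mrps36 is not given in the sources used here, so the levels of those genes are uncertain to that extent. The cause was not tested.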

How the results depend on the processing

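No paired analysis was possible because there were no replicates. With shallow barcodes of 3000 to 10000 UMIs, the fold of the sum was 2.78 in the 10% and 2.69 in the 90% aliquot. With 5000 to 15000 UMIs in the 90% aliquot it was 2.39 and the median fold 2.76. With cycle UMIs allowed in the shallow class the fold of the sum was 2.33 and 2.39, and 0 genes were lower in the 90% aliquot. With deep barcodes without cycle UMIs, 9 barcodes in the 10% aliquot, 34 of 56 genes were higher and 3 lower, the median fold was 1.88 (0.993 over all genes), the fold of the sum 1.78 and that of Mrps18b reversed to 0.662. In the 90% aliquot that median was 2.61 and the fold of the sum 2.22. Divided by the median fold of all genes, the median fold was 2.46 and 2.71 and the fold of the sum 2.06 and 2.16. Long reads gave a median of 2.39, a fold of the sum of 2.20 and 0.695 for Mrpl44. With the mean of CPM per barcode in the 90% aliquot, 0 genes were lower, the fold of the sum was 2.69 and the fold with over without cycle UMIs at 3000 to 15000 UMIs was 1.49. In the 90% aliquot 0 genes were lower at a fold limit of 2 and without barcodes with UMIs of other cell types, against 19.5% and 26.6% of all genes. The fold of the sum in that aliquot was 2.56 without shared barcodes. Isoform differences were found in 3 of 20 genes with 100 UMIs per class (15%, against 10.6% of all genes), 24 of 40 at 10 points (60%, against 53.5%), 5 of 40 at 30 points (12.5%, against 5.64%) and 1 of 18 among reference-named isoforms (5.56%, against 5.65%). For the upstream share of Mrpl48 the difference stayed between -51.4 and -54.0 points in 3 alternatives. Of 726 alternatives for single folds, 619 stayed within the interval, 105 moved past it and 2 reversed, the values given for Mrps18b and Mrpl44. The causes were not tested. The alternatives without shared barcodes, without other cell types and for Mrpl48 were chosen after seeing the data.

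One capture without replicates gives no error between animals or captures, and all intervals cover counting error only. Depth, cycle UMIs and origin of the cells cannot be told apart in full. Genes under 10 UMIs in the shallow class of the 10% aliquot, such as Mrps18c with 7, have wide intervals.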
